A study of Mus musculus with 185 samples.

Results

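Genes of phosphatidylserine recognition were followed through single Langerhans cells (LCs), the mononuclear phagocytes of the epidermis. The 9 members, of 45661 genes counted, were chosen by name with the difference of Timd4 between cell origins already known: the phosphatidylserine receptors Timd4, Axl, Mertk, Tyro3 and Stab1 and the bridging proteins Mfge8, Edil3, Gas6 and Pros1. The level, the share of cells with a read and the co-detection of Timd4 and Edil3 between origins are therefore descriptions. The mice were bone marrow chimeras (BMC): Cd207DTR animals (CD45.1, B6 background) were irradiated and received CD45.2 wild-type marrow and later a low dose of diphtheria toxin (DT). Cd207DTR places the DT receptor under control of the Cd207 locus, so that DT kills Cd207-expressing cells of the host, and the dose was low enough for some host LCs to remain. Cells of the host (CD45.1, Cd207DTR) are embryo-derived LCs (eLCs) and cells of the donor (CD45.2, wild type) are monocyte-derived LCs (moLCs). Both lived in the same irradiated, DT-treated epidermis and passed the same gate for CD11c, CD11b, CD24, MHCII and CD326. The origin cannot be told apart from the Cd207 allele or from having survived DT, and neither the age of the mice nor the animal of any cell is given. Each origin therefore counts as 1 sample, and a test between origins was not possible.

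Phosphatidylserine moves to the outer face of the membrane when a cell dies and marks it for engulfment. Phagocytes bind the lipid directly through receptors such as TIM-4, the product of Timd4, or through soluble bridges. MFG-E8 and EDIL3 hold the lipid at one end and integrins at the other, whereas GAS6 and protein S, the product of Pros1, link it to the TAM receptor kinases TYRO3, AXL and MERTK.

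A filter at 5% mitochondrial reads removed 3 cells and kept 182, of which the highest had 3.89%. The 79 eLCs were split into 29 on plate 1 and 50 on plate 2, and the moLCs into 67 on plate 1 and 36 on plate 2. The eLCs had 432614 to 4525429 reads on genes and the moLCs 606878 to 4450795. All 8 LC markers had reads in both origins, with a summed level of 94278 to 268667 reads per 1000000 reads (CPM) per eLC and 8719 to 307157 CPM per moLC. The 4 fibroblast markers had no read. The summed level per cell of the other lists had a median of 0 in each origin, except for the 4 monocyte markers. These had a median of 0 CPM in eLCs (highest 1046) and 8.34 CPM in moLCs (highest 4722). Dermal DC1 markers were read in 24 eLCs (highest 304 CPM) and 19 moLCs (highest 333 CPM). Keratinocyte markers were read in 6 eLCs (highest 95.3 CPM) and 16 moLCs (highest 542 CPM). T cell, melanocyte and endothelial markers were read in at most 5 cells of an origin. The monocyte markers Ccr2 in eLCs and Ly6c2 in moLCs were at 0. Lyz2 was read in 22.8% of eLCs and 41.7% of moLCs, and Cd14 in 26.6% and 19.4%. The part of these lists in the differences below was not tested. Hbegf, the mouse counterpart of the DT receptor gene, was read in 69 of 79 eLCs and in 5 moLCs (4.85%). Its level reached 21.8 CPM in eLCs, whereas the 5 moLCs had 3.15 to 116 CPM. All but the lowest of these moLCs had 45.4 CPM or more, above every eLC. The source of these reads was not tested. As for Cd207, 3 moLCs had less of it than the median eLC (1448 CPM). These labels were kept, and values that rest on the 3 cells are given with and without them.

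A short motif known from integrin ligands is encoded by 5 of the 9 members. Arginine, glycine and aspartate in a row (RGD) are known to serve as the integrin-binding site of MFG-E8 and EDIL3, and the coding sequences of both genes and of Timd4 hold the motif 1 time each. The stretches below are from the coding strand of GENCODE M21 transcripts (GRCm38, the assembly also called mm10), with the 3 RGD codons in capitals and shown so that the codons can be compared between a receptor and 2 bridges.
Timd4: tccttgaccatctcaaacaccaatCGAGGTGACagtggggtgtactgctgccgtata
Edil3: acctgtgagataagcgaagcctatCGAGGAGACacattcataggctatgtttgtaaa
Mfge8: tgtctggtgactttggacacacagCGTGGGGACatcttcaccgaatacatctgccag
The capitals lie at chr11:46815682-46815690 on the plus strand for Timd4 (exon 2), at chr13:89042491-89042499 on the plus strand for Edil3 (exon 4) and at chr7:79145308-79145316 on the minus strand for Mfge8 (exon 3). The same 3 residues occur 1 time in Axl and 2 times in Stab1, and not in Mertk, Tyro3, Gas6 or Pros1. A match is a description of the letters and does not show that a protein binds an integrin. How common the motif is among all proteins was not counted, so nothing is read from the count of members.

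The members spanned the whole range from every cell to none. Mfge8 was read in 182 of 182 cells and took 97.2% of all reads on the members. Edil3 was read in 82 cells, Timd4 in 81, Pros1 in 28, Axl in 2 and Gas6 in 1. Mertk, Tyro3 and Stab1 had no read in any cell, those left out included. Per length of exon, the summed level over the kept cells was 2339 CPM per kilobase of exon (RPKM) for Mfge8, 121 RPKM for Timd4, 3.87 RPKM for Pros1 and 2.90 RPKM for Edil3. Edil3 has the longest exons of these (13677 bases against 2173 for Timd4), so its order beside Pros1 depends on the gene model. Axl and Gas6 were below 0.1 RPKM at 0.0740 and 0.0182.

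Among the receptors, Timd4 was read in most eLCs and in few moLCs. Of 79 eLCs, 60 held a read (75.9%, exact 95% interval 65 to 84.9), whereas 21 moLCs did (20.4%, 13.1 to 29.5). The share in eLCs was 79.3% on plate 1 and 74% on plate 2, and the share in moLCs was 16.4% and 27.8%. On each plate, the interval of eLCs lay wholly above that of moLCs. These intervals are over cells and do not cover the spread between animals, so this is not a test between origins. With every cell thinned to 2052512 reads, which left out 12 eLCs and 7 moLCs of lower depth, the shares were 82.1% and 19.8%.

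The level of Timd4 followed the share of cells. In eLCs it ran from 0 through a median of 161 to 4396 CPM, and in moLCs from 0 through a median of 0 to 1658 CPM. The highest values of both origins overlapped, and the medians differed because most moLCs had no read. Summed over cells, Timd4 had 469 CPM in eLCs (exact Poisson interval 466 to 472) and 114 CPM in moLCs (113 to 116). Expressed as log2 of moLCs over eLCs, the ratio was -2.03. This ratio was -3.16 within plate 1 (653 against 73.2 CPM) and -0.84 within plate 2 (344 against 192 CPM), so the difference was 8.92-fold on plate 1 and 1.79-fold on plate 2. With each cell of a plate left out in turn, a check chosen after seeing the data, it ran from -3.59 to -2.73 on plate 1 and from -1.24 (without 1 moLC) to -0.66 on plate 2. Among cells with a read, the level had no one direction between origins. The 60 eLCs had a median of 293 CPM and the 21 moLCs one of 405 CPM, with the eLCs higher on plate 1 (524 against 329 CPM) and the moLCs higher on plate 2 (629 against 245 CPM). The lowest moLC with a read had 234 reads, and no moLC lay between 0 and 93.6 CPM. The 21 moLCs thus carried Timd4 at levels within the range of eLCs.

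The TAM receptors and Stab1, a scavenger receptor with affinity for phosphatidylserine, were at or near 0. For Mertk, Tyro3 and Stab1, 0 of 182 cells had a read, which allows a share of up to 1.65%. Axl was read in 0 of 79 eLCs, which allows a share of up to 3.80%, and in 2 moLCs (1.94%). These cells held 24 and 169 reads, 1 on each plate. Both were among the 3 moLCs with less Cd207 than the median eLC, with 42.6 and 467 CPM of Cd207. Without those 3 cells no Axl read was left. With the eLCs set to 3 reads, the log2 ratio of Axl was 5.54, and without the cell of 169 reads it was 2.55. Both values rest on these 2 moLCs. The share that the eLCs allow (3.80%) lies above the 1.94% of moLCs, so no direction between origins is given for Axl. Axl reads were also found in 1 of the 3 cells left out for mitochondrial reads. Stab1 overlaps Nt5dc2 on the opposite strand, and Nt5dc2 had 479 reads in 2 cells. Mertk overlaps the antisense gene Gm14011, which had none.

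Among the bridging proteins, Edil3 was likewise read in most eLCs and in few moLCs. Of 79 eLCs, 63 held a read (79.7%, 69.2 to 88), whereas 19 moLCs did (18.4%, 11.5 to 27.3). The share was 89.7% of eLCs and 16.4% of moLCs on plate 1, and 74% and 22.2% on plate 2. Thinning left 80.6% and 18.8%. The level ran from 0 through a median of 51.6 to 338 CPM in eLCs and from 0 through a median of 0 to 386 CPM in moLCs, so that the highest cell was a moLC. That cell, on plate 2, held 28.3% of the Edil3 reads of all moLCs. Summed, Edil3 had 73.1 CPM in eLCs (71.9 to 74.2) and 15.5 CPM in moLCs (15.01 to 15.9), which gives a log2 ratio of -2.24. Plate 1 alone gave -3.45 and plate 2 alone -1.19, and leaving out the highest moLC gave -2.70. Within plate 2 the ratio was -1.87 without that moLC, a check chosen after seeing the data. Over cells with a read, eLCs had a median of 77.9 CPM and moLCs one of 56.9 CPM, lower in moLCs on plate 1 (36.3 against 74.7) and higher on plate 2 (108 against 80.04).

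Mfge8, the most abundant bridge, was read in every cell. Its level ran from 918 through 8942 to 32086 CPM in eLCs and from 219 through 9814 to 41561 CPM in moLCs, and the ranges overlapped almost entirely. Summed, it had 10092 CPM in eLCs and 11619 CPM in moLCs, which gives a log2 ratio of 0.20. The sign turned between plates, with -0.18 within plate 1 and 0.68 within plate 2. On plate 2 the eLCs had a median of 6481 CPM and the moLCs one of 14449 CPM, and on plate 1 it was 11201 and 8765 CPM. No direction between origins is given for Mfge8 on this account.

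The TAM ligands were sparse. Of 79 eLCs, 9 held a Pros1 read (11.4%, 5.34 to 20.5), and 19 moLCs did (18.4%, 11.5 to 27.3), and these intervals overlap. Summed over cells, its level in eLCs was 9.30 CPM against 20.6 CPM in moLCs. The log2 ratio was 1.14, with 1.60 within plate 1 and 1.15 within plate 2. Plate 1 had 2 eLCs with a Pros1 read, and without 1 of them the ratio there was 2.69. On plate 2 it ran from 0.90 without 1 moLC to 1.74 without 1 eLC, with each cell left out in turn after the data had been seen. Cells with a read had a median of 81.2 CPM if eLCs and 115 CPM if moLCs. Gas6 had 24 reads in 1 eLC of plate 2, a cell that also held Timd4 (467 CPM) and Edil3 (71.3 CPM). In moLCs, 0 cells had a Gas6 read, which allows a share of up to 2.91%. Gas6 overlaps Tmem255b on the opposite strand, which had no read.

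**Figure D1:**
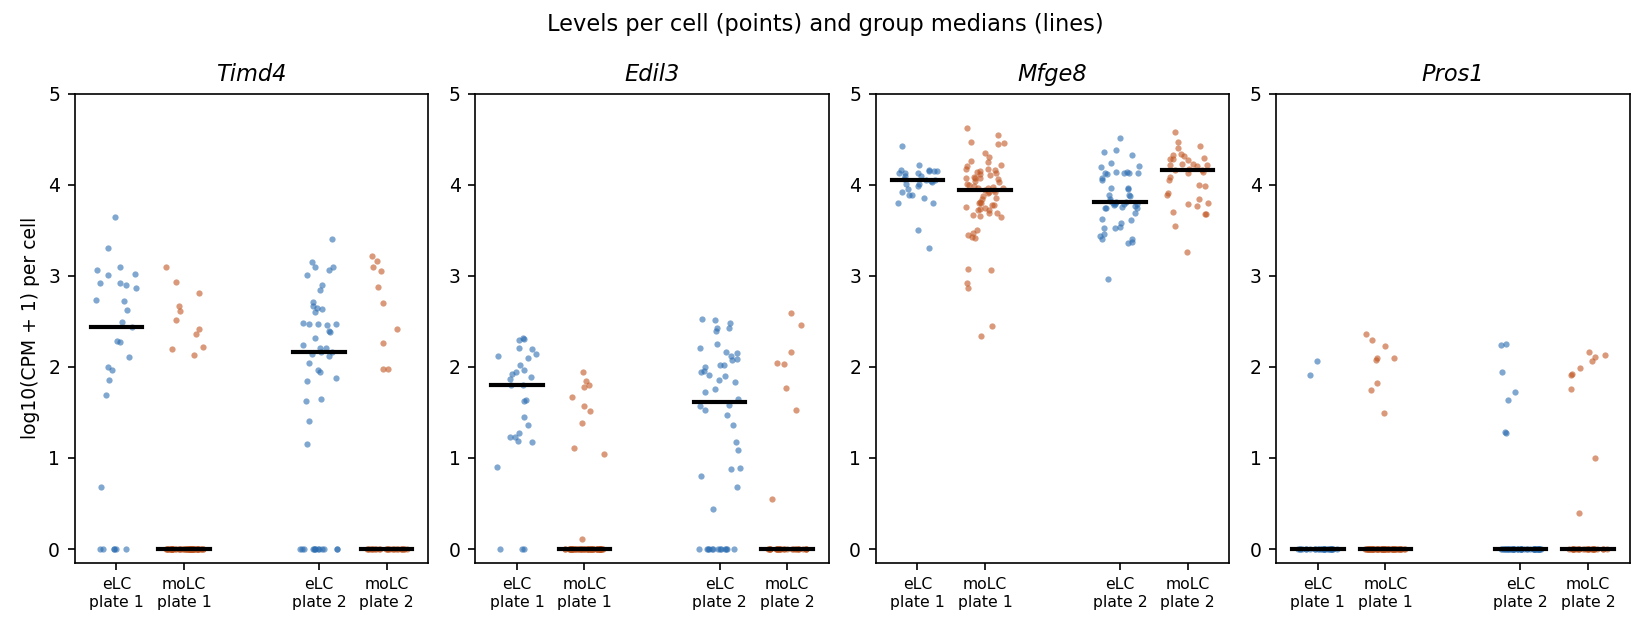
Level of Timd4, Edil3, Mfge8 and Pros1 in each of the 182 kept cells (points) as log10 of CPM + 1, by origin and plate, with the median of each group as a line. The Timd4 and Edil3 medians of moLCs lie at 0 on both plates, the few moLCs with a read reach the range of eLCs, and Mfge8 is high in every group.

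**Figure D2:**
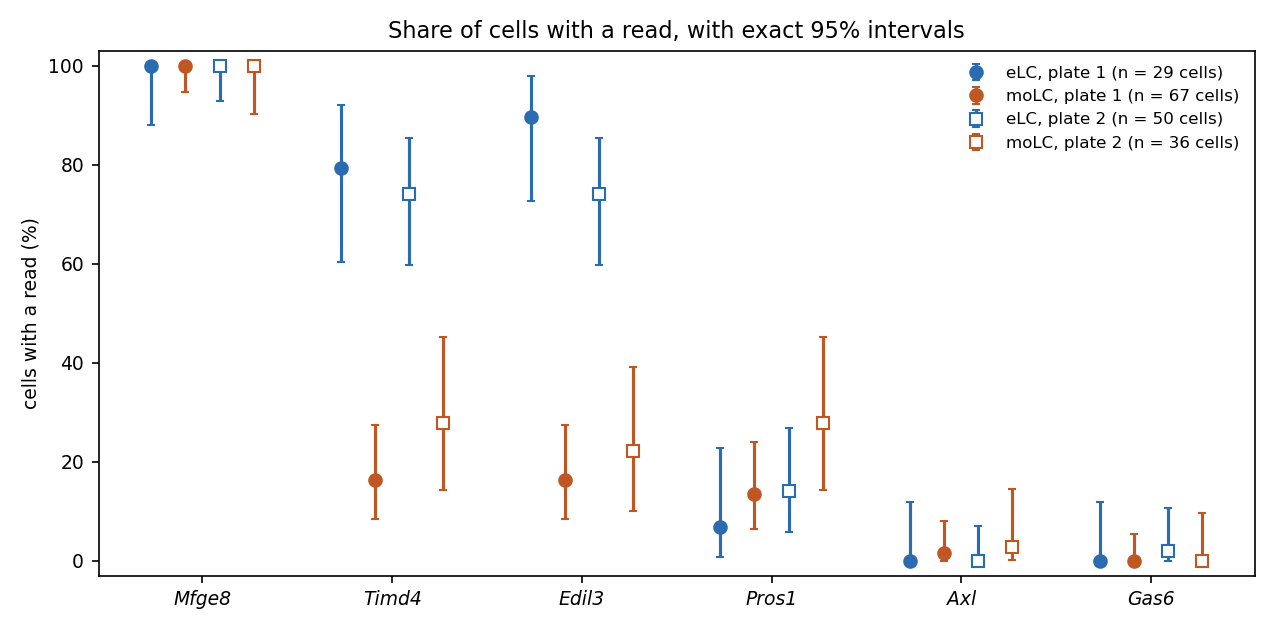
Share of cells with a read (percent, points) with exact 95% Clopper-Pearson intervals (bars), for the 6 members with a read, by origin (colour) and plate (filled circles, plate 1, and open squares, plate 2). For Timd4 and Edil3 the intervals of eLCs and moLCs are apart on each plate, and for Mfge8, Pros1, Axl and Gas6 they overlap. The intervals are over cells and do not cover the spread between animals.

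Set beside all genes, the members split by measure. Genes were considered where 25% or more of the eLCs or of the moLCs held a read (6522 genes). Of these, 1.21% were at least 2-fold higher in eLCs and 0.813% at least 2-fold higher in moLCs in the pooled cells and within each plate. The members considered were Timd4, Edil3 and Mfge8. Of these, Timd4 and Edil3 met the minimum only through eLCs (20.4% and 18.4% of moLCs held a read). By the 2-fold rule 1 member was higher in eLCs (Edil3) and 0 in moLCs. Timd4 missed it on plate 2, where its ratio was past 2-fold without 1 moLC (log2 -1.24), and Pros1 was read in too few cells to be considered. The share of cells with a read was at least 20 percentage points higher in eLCs for 0.92% of genes and at least 20 points higher in moLCs for 0.123%, pooled and within each plate. Here 2 members were higher in eLCs and 0 in moLCs. Edil3 differed by -61.3 points (moLCs minus eLCs) and Timd4 by -55.6 points, the second and the third of the 6522 genes from the side of eLCs, where the median gene differed by -4.12 points. Since the contrast was known when the members were chosen, nothing is read from these counts. The median log2 ratio over the 6522 genes was -0.10, and scaling by TMM factors moved the pooled ratios up by 0.10. It changed the split of all genes past the 2-fold rule from 79 higher in eLCs and 53 in moLCs to 63 and 64, and the member past it was still Edil3.

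Timd4 and Edil3 were read together in most eLCs and in few moLCs. Of 79 eLCs, 49 had reads of both (62.03%, 50.4 to 72.7), 11 of Timd4 alone, 14 of Edil3 alone and 5 of neither. Of the moLCs, 4 had reads of both (3.88%, 1.07 to 9.65), 17 of Timd4 alone, 15 of Edil3 alone and 67 of neither. By plate, both were read in 20 of 29 and 29 of 50 eLCs, and in 1 of 67 and 3 of 36 moLCs.

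Within an origin, however, reads of Timd4 said little about reads of Edil3. The product of the 2 shares is 60.6% in eLCs and 3.76% in moLCs, close to the 62.03% and 3.88% observed. Edil3 was read in 81.7% of eLCs with Timd4 (69.6 to 90.5), against 73.7% of eLCs without it (48.8 to 90.9). In moLCs it was read in 19.05% of cells with Timd4 (5.45 to 41.9) and in 18.3% of cells without it (10.6 to 28.4). These intervals overlap widely, and with 19 eLCs without Timd4 and 21 moLCs with it a moderate association was not detectable. The phi coefficient, a correlation of presence over cells that share plates and depth, was 0.08 over 79 eLCs and 0.01 over the moLCs. In eLCs it was -0.17 on plate 1 and 0.17 on plate 2. In moLCs it was -0.09 and 0.12. With genes read in 25% to 95% of the cells, the median phi of Timd4 was 0.05 in eLCs and -0.03 in moLCs. The rank correlation of the 2 levels was 0.02 over eLCs and 0.05 over moLCs.

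The 4 moLCs with both had 757 to 1658 CPM of Timd4 and 2.58 to 284 CPM of Edil3. Their Cd207 level was 2555 to 40944 CPM, and 1 of them, the lowest in Cd207, had Hbegf reads. Among the 87 moLCs with more Cd207 than any eLC (above 7767 CPM), Timd4 was read in 20.7%, Edil3 in 18.4% and both in 3.45%. The shares of these genes in moLCs were thus similar without the cells whose Cd207 lay within the range of eLCs. The moLC with both genes and Hbegf reads had the highest Timd4 level of all moLCs (1658 CPM). It held 26.3% of the Timd4 reads of moLCs on plate 2, and without it the log2 ratio there was -1.24. Whether its label is right was not tested. The 49 eLCs with both had a median of 2850326 reads and the 5 with neither 2052367. Those with Timd4 alone had 2655173 reads and those with Edil3 alone 2966297. All 5 eLCs with neither were on plate 2, where the eLCs with both had a median of 2634060 reads. In moLCs the medians of both and neither were 3008258 and 2919212 reads. The part of depth in the co-detection of eLCs was not tested beyond the thinning, after which 65.7% of eLCs had both, against a product of shares of 66.2%.

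**Figure D3:**
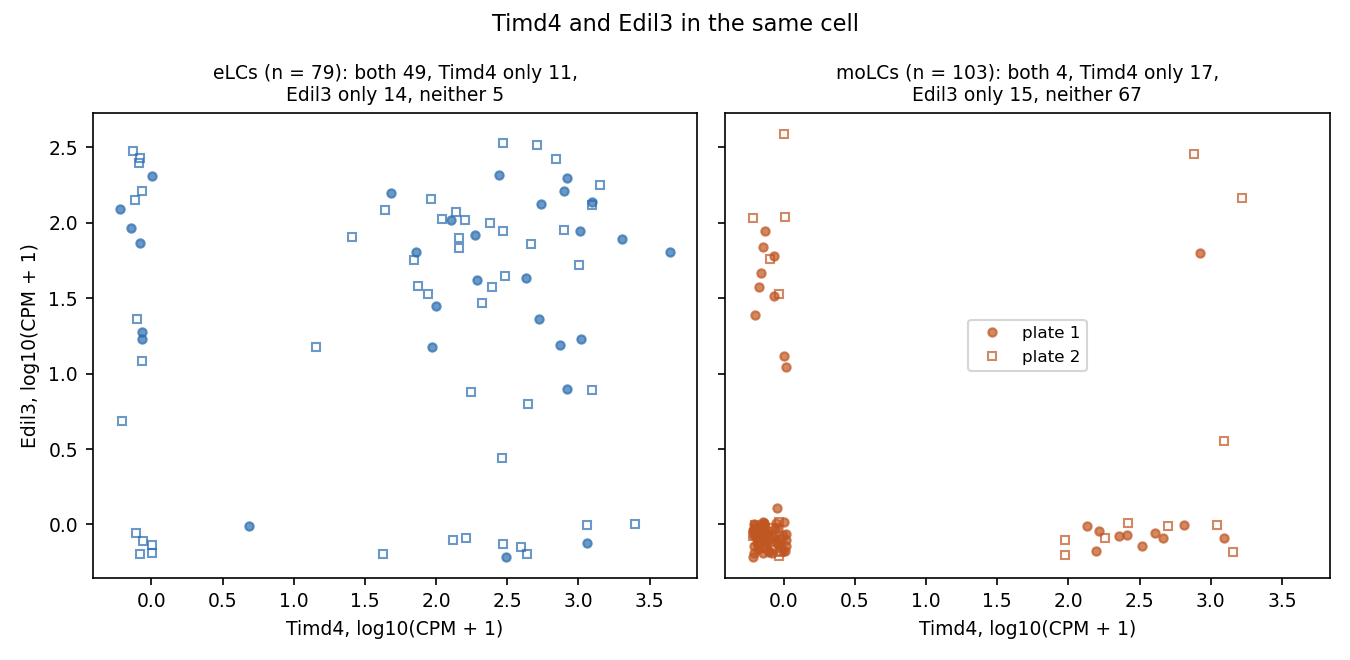
Timd4 (x axis) against Edil3 (y axis) in each eLC (left) and moLC (right), both as log10 of CPM + 1, with plate 1 as filled circles and plate 2 as open squares. Cells at 0 are spread slightly below 0 so that they can be seen. Most eLCs lie off both axes (49 of 79), and most moLCs lie at 0 on both axes (67 cells), with 4 off both axes.

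Other pairs were near the product of their shares as well. Pros1 and Timd4 were read together in 6 eLCs, where the product gives 6.84 cells, and in 4 moLCs, where it gives 3.87. Pros1 and Edil3 were read together in 8 eLCs (7.18) and in 3 moLCs (where it gives 3.5). No cell held Axl with Timd4 or Edil3, and 1 of the 2 moLCs with Axl held Pros1. Counting the members read in a cell, 59.5% of eLCs held 3 members, most often Mfge8 with Timd4 and Edil3, and 51.5% of moLCs held 1 member, which was Mfge8 in each. Reads of 4 members were found in 7.59% of eLCs and in 0.971% of moLCs.

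The genes most like Timd4 over the 79 eLCs, by rank correlation of CPM, were Tnfrsf9 (0.48), Cd40 (0.45), Ttc7b (0.43), St3gal1 (0.43) and H2-D1 (0.43). The median over 6284 genes was 0.00 and the 95th percentile 0.21. Tnfrsf9 and Cd40 encode costimulatory receptors of the TNF receptor family, and H2-D1 a class I MHC chain. These values held within each plate, at 0.46 and 0.45 for Tnfrsf9, 0.54 and 0.43 for Cd40, and 0.43 and 0.35 for H2-D1. Between origins the summed levels of Cd40 and H2-D1 had log2 ratios of -0.04 and -0.03, and that of St3gal1 was -0.07. Tnfrsf9 was lower in moLCs at -0.87 (-1.16 on plate 1 and -0.69 on plate 2), and Ttc7b was at -0.71 (-1.44 and 0.11). The genes most like Edil3 were Yif1b (0.40), Zc3h7a (0.33), Cwc25 (0.32), Cd300a (0.32) and Xab2 (0.31), none of them among the 5 of Timd4. Xab2 was at -0.02 on plate 1 and 0.44 on plate 2. For Axl the highest values over 182 cells were Capg (0.23), Uchl4 (0.23), Tmem176b (0.23), Aif1 (0.22) and Gm20430 (0.22), and they rest on 2 cells. For Mfge8, added after its values were seen, high values over 182 cells were those of Eif4g2 (0.45), Nfkb2 (0.45), Myo1g (0.44) and Vcp-rs (0.44). Eif4g2 was at 0.12 on plate 1 and 0.66 on plate 2, so its likeness lay mainly in plate 2. All of these are correlations across cells that share plates and depth, and are given as descriptions.

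The genes around the members were taken from 10 lists. They hold 92 genes, of which 44 met the same share minimum and 14 had no read. Past the 2-fold rule, 1 was higher in moLCs (background 0.813%) and 0 in eLCs (background 1.21%), and the median log2 ratio of the 44 was -0.01, against -0.10 over all genes. These shares are near the background, and nothing is read from them.

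Of 15 other receptors for phosphatidylserine or dying cells, 2 were read widely. Havcr2, which encodes TIM-3, had 1316 CPM in eLCs and 1441 CPM in moLCs (log2 0.13). Cd300a, an inhibitory receptor for phosphatidylserine, had 69.7 and 156 CPM (log2 1.16, with 0.76 on plate 1 and 1.66 on plate 2). Havcr1, which encodes TIM-1, a relative of TIM-4, was under the share minimum and was named after its values were seen. It was read in 13.9% of eLCs and 2.91% of moLCs, with 19.8 and 4.04 CPM (log2 -2.30, with -2.23 on plate 1 and -2.76 on plate 2). Other receptors under the minimum went the other way. Among them, Cd300lb had 0.184 CPM in eLCs and 9.03 CPM in moLCs (read in 1.27% and 2.91%). Trem2 had 0 and 1.85 CPM (read in 0% and 1.94%). Nothing is read from Havcr1 alone. Adgrb1 and Megf10 had no read. Of 9 other opsonins, 6 passed the share minimum and 0 the 2-fold rule. C1qa, a chain of complement C1q, had log2 ratios of -0.84 on plate 1 and 0.32 on plate 2, and the phospholipid-binding Anxa1 0.22 and -0.35.

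Of the 5 integrin subunits that pair into RGD receptors, only Itgb1 met the share minimum, with 251 CPM in eLCs and 170 CPM in moLCs (log2 -0.57, with -0.97 on plate 1 and -0.07 on plate 2). Itgav, the partner of most of the others, was read in 18.99% of eLCs and 17.5% of moLCs. Of 12 engulfment signalling genes, 7 passed the share minimum and 0 the 2-fold rule. Rhog, a small GTPase upstream of ELMO and DOCK, had log2 ratios of -0.71 and -0.53 on the 2 plates, and Vav1, an exchange factor for RAC, 0.07 and 1.67. Of 10 genes of LC3-associated phagocytosis and phagosomes, 8 passed the minimum with a median log2 of -0.29. Pik3c3, the class III phosphatidylinositol kinase, was at -0.45 (-0.38 and -0.22 by plate) and Map1lc3b, which encodes LC3B, at -0.36 (-0.49 and -0.24).

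Of 10 lipid handling genes, 5 passed the minimum. The retinoid X receptor gene Rxrb had a pooled log2 ratio of 0.33, but 0.09 and -0.002 within the plates, and the mitochondrial carrier gene Ucp2 had -0.25 (-0.28 and -0.31). Of 10 TAM receptor partners and feedback genes, 8 passed the minimum and 1 the 2-fold rule. This was Socs3, a feedback inhibitor of cytokine signalling, with 48.3 CPM in eLCs and 107 CPM in moLCs (log2 1.14, with 2.04 on plate 1 and 1.09 on plate 2). Adam17, a protease that sheds TAM receptors, had 0.37 and -1.16. Of 9 find-me and do-not-eat-me genes, 2 passed the minimum, Sirpa at log2 0.66 (1.07 and -0.52 by plate) and its ligand Cd47 at 0.12. Of 7 genes of phosphatidylserine synthesis and exposure, 5 passed. The synthase gene Ptdss2 had a log2 ratio of -0.56, with the sign turning between plates (-1.33 and 0.32). Of the 5 genes that accompany Timd4 in resident macrophages of other tissues, Lyve1, Folr2, Cd163 and Vsig4 had no read in any kept cell, also in the 81 cells with Timd4. Mrc1 was read in 2.91% of moLCs and in no eLC.

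**Figure D4:**
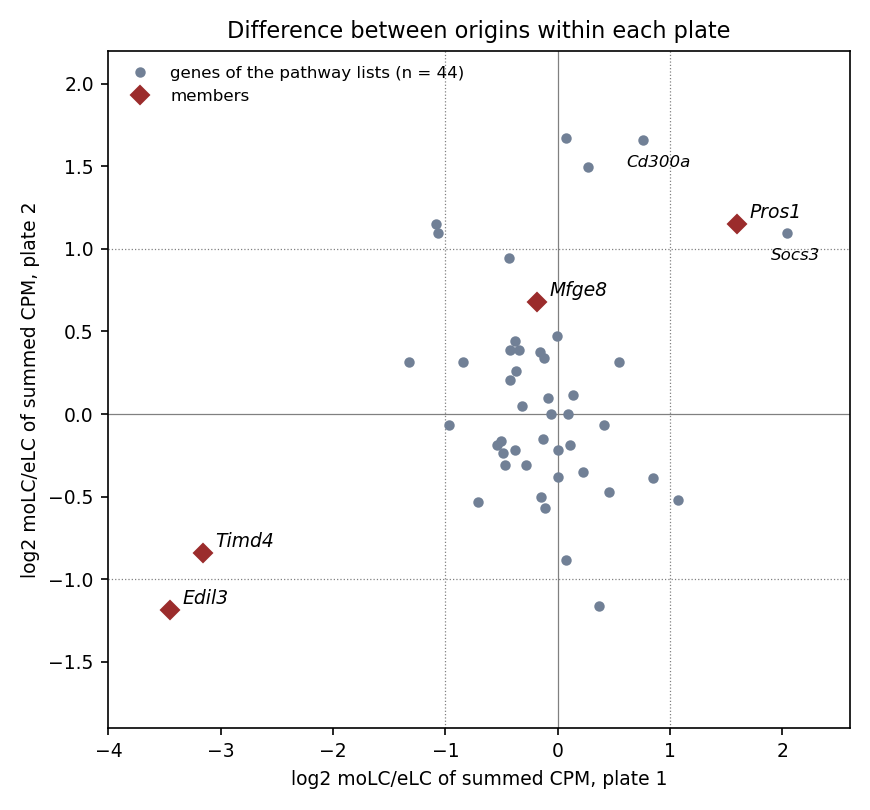
Log2 ratio of moLCs over eLCs of summed CPM within plate 1 (x axis) and within plate 2 (y axis) for Timd4, Edil3, Mfge8 and Pros1 (diamonds) and the 44 pathway genes that met the share minimum (points), with dotted lines at 2-fold. Timd4 and Edil3 lie at the lower left, apart from the pathway genes, and Socs3 is the only pathway gene past 2-fold on both plates in the same direction.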

How the data were processed

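Single epidermal LCs were index sorted, and cDNA was amplified with a Smart-Seq kit without molecular identifiers. Per the labels, reads were aligned with STAR to mm10. The counting tool and gene annotation are not given in the sources used here. The authors deposited raw counts of reads for each gene in each cell. In 8 cells, 9 deposited values were not whole and were handled like estimated counts and rounded. Of the values above 0, 82.8% were even and the most common was 2, so reads are not independent molecules and intervals (95%) cover counting error only and are too narrow. No test was made, as each origin is 1 sample. The methods' Wilcoxon test on single cells was not repeated. Plates were taken as batches, as labelled, and no doublet caller was run on singly sorted cells.

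Counts were summed by origin and divided by all reads to give CPM. Where 1 origin had no read, its sum was taken as 3 reads. Lengths were the union of exons in GENCODE M21, in which 45495 of 45661 gene names were found. Shares have exact Clopper-Pearson intervals, and a share of 0 is given with 3 cells of the total as its limit. Depth was equalized by thinning to the 10th percentile of cell totals. The members and gene lists were chosen with earlier results of these data known. The text names all members, list genes past the 2-fold rule, the 2 list genes with the largest absolute log2 ratio among those that met the share minimum (a read in 25% of the eLCs or moLCs), the 5 genes most like Timd4, Edil3 and Axl, and Cd207, Hbegf and sex-linked genes as label checks (Xist was read in 60.8% of eLCs and 54.4% of moLCs). Other list genes named were chosen after their values were seen. Some genes that the rule names are not reported here. The 2-fold rule, the phi coefficient and the rank correlation were tested on simulated data. The rule on the share of cells with a read was not. Python 3.11.15, numpy 2.4.6, pandas 2.3.3, scipy 1.17.1, matplotlib 3.10.9, R 4.3.3 and edgeR 4.0.16 (TMM factors) were used. The alternatives were each plate, no mitochondrial filter, at least 1000 genes read, totals that omit the 50 most read genes, TMM factors, equal weight per cell, thinning, other thresholds and each cell left out in turn, over all cells and, chosen after seeing the data, within each plate.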

Additional observations from a re-analysis of the deposited data

How the results depend on the processing

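The count of members past the 2-fold rule was 1 (Edil3) in every alternative in which it was recounted except 2. With no minimum share of cells it was 3, with Pros1 and Axl added. Of the 17821 genes considered there, 786 were higher in eLCs and 760 in moLCs, against 79 and 53 of 6522 by the main rule. Axl rests on 2 moLCs with the eLCs set to 3 reads, and no direction is given for it. With a 1.5-fold threshold the count was 2, with Timd4 added, where 321 of 6522 genes were higher in eLCs and 180 in moLCs. Nothing is read from these counts. The count was not redone without single cells, but Timd4, short of 2-fold on plate 2, was past it there without 1 moLC (log2 -1.24). The share of eLCs with both Timd4 and Edil3 stayed between 55.7% (at least 10 CPM) and 68.97% (plate 1), and that of moLCs between 1.49% (plate 1) and 8.33% (plate 2). With each cell left out in turn, the log2 ratio ran from -2.26 to -1.81 for Timd4, -2.70 to -2.18 for Edil3, 0.16 to 0.24 for Mfge8, 0.98 to 1.56 for Pros1 and 2.55 to 5.57 for Axl. Of 77 recomputed log2 ratios of members, 52 moved beyond the counting interval, which is narrow, and of 72 shares 4 did. Leaving out the 3 moLCs with less Cd207 than the median eLC, an alternative chosen after seeing the data, gave -2.0 for Timd4, -2.21 for Edil3 and 4.0% of moLCs with both. Gas6 rests on 1 cell, which the thinning left out, and no value can be given without it. Shares limit genes to a read at this depth, and 0 reads do not show that a gene is silent. The cause of the difference between plates was not tested.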
